A study of Mus musculus with 6 samples.

Results

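Trp53, which encodes the transcription factor p53, and 37 genes described as its transcriptional targets were compared between a parental mouse tumor line and a mutant derived from it. The 38 genes were taken by their symbols from the deposited expression tables, which list 24346 gene symbols, and all 38 symbols were found. The targets were grouped by what their products do, into 4 feedback genes, 7 cell-cycle arrest genes, 16 apoptosis genes, 9 metabolism or repair genes and the noncoding RNA Pvt1.

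The parental cells were CT26.mMR1, a mouse colorectal tumor line (CT26) made to overexpress mouse MR1, the molecule that presents small metabolites to MAIT cells. M8 was derived from these cells with the mutagen N-ethyl-N-nitrosourea (ENU). It was among the screened mutants that enhanced the signal of a MAIT cell receptor reporter line. The study chose it since its surface MR1, unlike that of the other such mutants, was significantly above the parental level. Both lines thus carry the MR1 transgene, and they differ in the mutagenesis and in M8 being a single selected mutant line, so that an effect of any mutation cannot be told apart from variation between clones. The labels name 3 RNA samples of each line and no further treatment or time. Titles of both lines carry the mark cl9, which they do not explain. The Trp53 sequence and the p53 protein were not measured in these tables.

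p53 is held at a low level in unstressed cells by Mdm2, a ubiquitin ligase that marks it for degradation, and by Mdm4, which binds and inhibits it. DNA damage and other stresses release p53 from this control, and it then binds DNA as a tetramer at paired copies of a short sequence, the p53 half-site, and switches on its targets. These include Mdm2 itself, which closes a feedback loop, as well as genes that stop the cell cycle, trigger apoptosis, repair DNA or adjust metabolism.

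Expression is given in FPKM, the number of mapped fragments scaled to the length of the exons and to the size of the library, and differences are log2 fold changes of FPKM + 1, M8 minus parental, which understate the change of low genes. A gene was counted as higher or lower when limma, fitted across the 10597 genes with a mean of at least 1 FPKM, gave a Benjamini-Hochberg adjusted p below 0.1. FPKM values summed to between 593635 and 626241 per parental sample and between 622529 and 630264 per M8 sample, and a depth estimated from the values of low genes, with the first parental sample set at 1, was 0.948 to 1.07 in the other parental samples and 0.772 to 0.875 in M8. The study describes values plotted from this comparison as biological replicates, while the labels do not say whether the samples were separate cultures, without which the p-values measure a spread that may be technical. Mr1 was at 1046 to 1139 FPKM in parental cells and 1034 to 1095 FPKM in M8 (log2 fold change -0.03, limma adjusted p = 0.615). This is RNA, while the surface MR1 that the study found raised on M8 is protein. Of 10 markers of colon epithelium, the labelled tissue, 7 were under 1 FPKM in all 6 samples and Epcam, Cdh1, Krt19 and Cdx2 were listed at 0, while 8 of 8 mesenchymal markers were expressed. The epithelial markers summed to 41.8 to 57.7 FPKM in parental cells and 48.2 to 50.1 FPKM in M8, the mesenchymal markers to 2984 to 3439 and 3096 to 3191 FPKM, and 6 of 6 leukocyte markers were under 1 FPKM. Krt20, a keratin of differentiated colon epithelium, fell from 17.4 ± 2.36 to 11.9 ± 0.979 FPKM (SD, n = 3; log2 fold change -0.50, limma adjusted p = 0.00438), and of the other epithelial markers tested Lgals4 fell and Krt18 did not pass the test. Of the 8 mesenchymal markers, Fn1 fell (log2 fold change -0.35, limma adjusted p = 0.000917), Pdgfrb (0.25, limma adjusted p = 0.00787) and Cdh2 (0.13, limma adjusted p = 0.055) rose, and the other 5 did not pass the test. The part of these marker and depth differences in the results on the p53 targets was not tested. In such bulk samples fewer cells with a transcript and less RNA per cell cannot be told apart.

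In M8, Trp53 mRNA was higher than in parental cells while most of the changed target genes were lower, and the changes were small. The filter on low values left 35 of the 38 genes to be tested, of which 7 rose and 17 fell in M8 (limma adjusted p below 0.1), and 11 did not pass the test. Among all genes tested, 21.2% rose and 16.5% fell, so that the 20% of the 35 genes that rose is close to that background, whereas the 48.6% that fell is above it. The members were chosen with earlier results of these data known, so these shares describe the list and were not tested. In a list of further p53 targets, 12.2% of the genes tested rose and 22.0% fell. In 15 of the 35 genes all M8 samples lay below all parental samples, which was the case for 20.4% of all genes tested, and in 7 genes all M8 samples lay above, against 24.8% of all genes. The median log2 fold change over the 35 genes was -0.12, beside 0.01 over all genes tested. The median size of the changes was 0.16 for the 7 higher and -0.29 for the 17 lower genes, beside 0.23 and -0.25 for all higher and lower genes, and none of the 35 genes changed by 1.5-fold.

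The counts for the 4 roles below rest on 4 to 13 tested genes each. Of the feedback genes, 3 of 4 fell and none rose, with a median log2 fold change of -0.28. Of the metabolism or repair genes, 6 of 9 fell and 1 rose, with a median of -0.26. The cell-cycle arrest genes were mixed, since 3 of 7 fell and 2 rose (median -0.11), as were the apoptosis genes, of which 4 of the 13 tested fell and 3 rose (median -0.05). Among all genes tested 21.2% rose and 16.5% fell, with a median of 0.01. Of the cell-cycle arrest genes 28.6% rose and 42.9% fell, and of the apoptosis genes tested 23.1% rose and 30.8% fell. The shares that rose in these roles are not far from that background. Differences between the roles were not tested. Median centring left 7 members higher and 17 lower, while the other rescalings left fewer higher members. After conversion to TPM (values rescaled to the same sum in each sample), 4 members were higher and 18 lower, beside 15.6% and 20.8% of all genes. After quantile normalization 4 were higher and 18 lower, beside 17.2% and 16.7% of all genes, and after upper-quartile scaling 4 were higher and 19 lower, beside 13.9% and 26.1%.

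**Figure D1:**
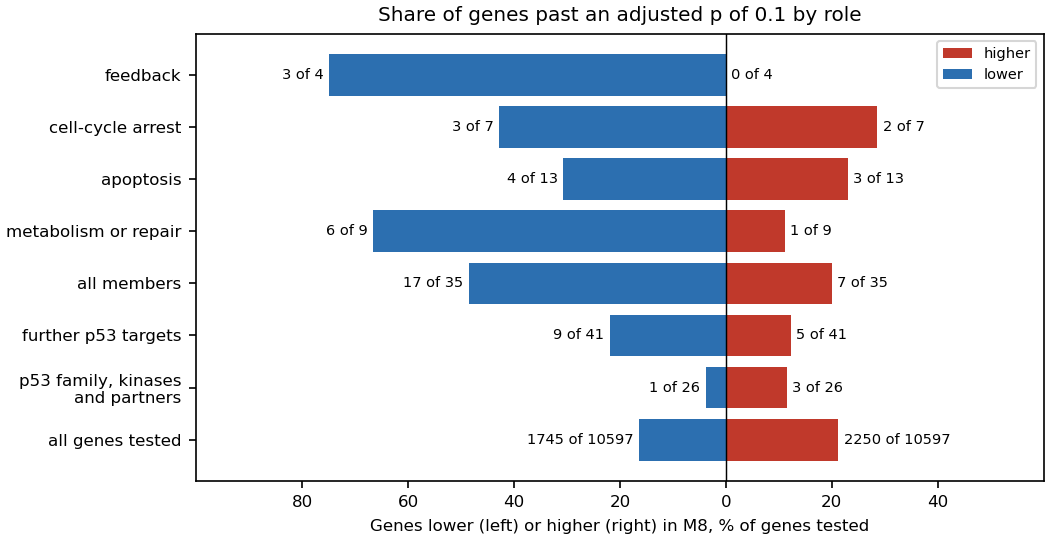
For 4 roles of the targets, for all members, for 2 lists of other p53 pathway genes and for all genes tested, the bars give the percent of tested genes that were higher or lower in M8 than in parental cells (limma, adjusted p below 0.1). The lower share is largest among the feedback genes (75.0%, 3 of 4) and the metabolism or repair genes (66.7%, 6 of 9) and is 16.5% over all genes tested.

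Trp53, the regulator itself, was expressed at 98.9, 104 and 100.4 FPKM in the parental samples and at 119, 117 and 117 FPKM in the M8 samples. Each M8 sample was thus above each parental sample, and the means were 101 ± 2.52 and 118 ± 1.04 FPKM (SD, n = 3). The log2 fold change was 0.22 (SE 0.0373, limma adjusted p = 0.00329), a rise of 16.3%, and 0.11 after quantile normalization, still past the threshold. The RefSeq names hold a Trp53 pseudogene, and reads shared with such a copy could have been counted for either.

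Of the 4 feedback genes, Mdm2, Mdm4 and Ccng1 fell and Ppm1d did not pass the test. Mdm2, the ubiquitin ligase, was at 79.3, 83.2 and 87.6 FPKM in parental cells and at 68.9, 68.7 and 69.8 FPKM in M8, so that the groups did not overlap. It fell by 0.27 on the log2 scale (SE 0.0444, limma adjusted p = 0.00294), from a mean of 83.4 ± 4.16 to 69.1 ± 0.564 FPKM. Mdm4, its relative without ligase activity of its own, was at 12.9, 10.8 and 12.3 FPKM in parental cells and at 9.50, 9.44 and 9.84 FPKM in M8. All M8 values were the lower ones, with a log2 fold change of -0.29 (SE 0.0669, limma adjusted p = 0.0112), and Mdm4 too has a named pseudogene. Ccng1, a cyclin that brings a phosphatase to Mdm2, had the lowest adjusted p of the feedback group, with 74.9, 70.2 and 71.8 FPKM in parental cells and 58.0, 57.4 and 58.7 FPKM in M8. It fell by 0.31 on the log2 scale (SE 0.0402, limma adjusted p = 0.000979). Ppm1d, a phosphatase that removes activating phosphates from p53, overlapped between the lines, with 6.59 to 7.52 FPKM in parental cells and 5.88 to 7.28 FPKM in M8 (log2 fold change -0.11, 95% interval -0.29 to 0.08, limma adjusted p = 0.351).

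Several of these genes carry a p53 half-site close before a transcript start. RefSeq promoter windows of GRCm38.p6, from 250 bases before to 50 bases after a start, with some genes having several starts, were found for 28 of the 38 genes. The consensus p53 half-site, which reads the same on both strands so that a single search covers them, was present in 12 of these 28 genes (42.9%), beside 9.55% of all 27025 genes with a window, and in 13 of their 39 windows (33.3%), beside 8.36% of all 32851 windows. By gene it was in 4 of 6 higher genes, 4 of 11 lower genes and 4 of 10 genes that did not pass the test. A match is a description and not a binding site, and its absence says only that these letters are not in the window. The stretches around the matches before the start are shown for 5 called genes, since both higher and lower genes have them. All 5 stretches lie outside the gene as GENCODE annotates it. Not shown are a match each in Aen and Polk that lies inside the annotated gene, and a match each in Aen and Gtse1 after the start. Each stretch shown is written 5′ to 3′ on the gene's strand with the half-site in capitals, and the first base of the match lies, relative to the start, at -75 in Trp53, -201 in Bax, -186 in Mdm2, -185 in Ccng1 and -73 and -51 in Cdkn1a.
Trp53, higher in M8, chr11:69580264-69580313, plus strand: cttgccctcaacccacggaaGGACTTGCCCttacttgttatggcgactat
Bax, higher in M8, chr7:45467070-45467119, minus strand: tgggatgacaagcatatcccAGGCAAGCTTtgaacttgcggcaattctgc
Mdm2, lower in M8, chr10:117710915-117710964, minus strand: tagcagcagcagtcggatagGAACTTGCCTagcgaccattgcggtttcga
Ccng1, lower in M8, chr11:40755442-40755491, minus strand: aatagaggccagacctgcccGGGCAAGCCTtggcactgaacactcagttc
Cdkn1a, lower in M8, chr17:29090886-29090957, plus strand: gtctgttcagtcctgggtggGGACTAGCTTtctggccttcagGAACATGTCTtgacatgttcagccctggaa

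Of the 7 cell-cycle arrest genes, Cdkn1a, Plk2 and Ccng2 fell, Gtse1 and Ptp4a3 rose, and Btg2 and Plk3 did not pass the test. Cdkn1a, which encodes the cyclin-dependent kinase inhibitor p21, was at 181, 178 and 178 FPKM in parental cells and at 164, 167 and 158 FPKM in M8. The groups were apart, but the fall was small, 0.14 on the log2 scale (SE 0.0378, limma adjusted p = 0.0253), and 0.24 after quantile normalization. In the GENCODE annotation of GRCm38 the gene (chromosome 17, 29090976 to 29100727) shares 273 exonic bases with a transcript on the opposite strand. Plk2, a kinase of centriole duplication that stress induces, was at 114, 116 and 129 FPKM in parental cells and at 101, 98.0 and 104 FPKM in M8. It fell by 0.24 (SE 0.0533, limma adjusted p = 0.0104) without overlap. Ccng2, a cyclin linked to arrest, was at 21.3, 29.6 and 27.2 FPKM in parental cells and at 18.3, 20.8 and 22.0 FPKM in M8, and the first parental sample lay within the M8 range. Its log2 fold change was -0.33 (SE 0.109, limma adjusted p = 0.0499), and the adjusted p was 0.124 to 0.168 without parental replicate 2, parental replicate 3 or M8 replicate 1.

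Gtse1, a microtubule-associated protein of dividing cells that binds p53, was at 33.9, 34.7 and 34.3 FPKM in parental cells and at 43.8, 41.0 and 41.5 FPKM in M8. All M8 samples were higher, with a log2 fold change of 0.29 (SE 0.0428, limma adjusted p = 0.00185). Ptp4a3, a phosphatase that promotes growth and migration, also rose, from 4.12 ± 0.0719 to 4.73 ± 0.206 FPKM (log2 fold change 0.16, limma adjusted p = 0.0975), but its adjusted p was 0.124 to 0.262 without any of the 6 samples in turn. The antiproliferative gene Btg2 was at 5.63 to 5.93 FPKM in parental cells and at 4.48 to 5.88 FPKM in M8 (log2 fold change -0.11, interval -0.31 to 0.09). The stress kinase gene Plk3, with 24.4 to 27.3 and 24.5 to 29.3 FPKM, overlapped between the lines as well (log2 fold change 0.07, interval -0.09 to 0.23).

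The apoptosis genes gave no common direction. Bax, which permeabilizes the mitochondrial outer membrane, was the second most abundant of all the members, with 256, 254 and 258 FPKM in parental cells and 286, 299 and 275 FPKM in M8. Each M8 sample was above the parental ones, and the log2 fold change was 0.16 (SE 0.041, limma adjusted p = 0.0179), but 0.05 (adjusted p = 0.377) after quantile normalization and 0.10 after upper-quartile scaling. Bax shares 192 exonic bases with the annotated gene Gm45808 on its own strand. Bcl2l1, whose main product Bcl-xL opposes Bax and protects from apoptosis, rose to a like extent, from 94.4 ± 3.38 to 104 ± 4.27 FPKM (log2 fold change 0.13, SE 0.0454, limma adjusted p = 0.0549). Aen, an apoptosis-enhancing nuclease, rose from 31.4 ± 1.69 to 34.5 ± 0.471 FPKM (log2 fold change 0.13, SE 0.0485, limma adjusted p = 0.0739). The calls of both depended on single samples and on the scaling. The adjusted p was 0.123 to 0.193 for Bcl2l1 without parental replicate 1, M8 replicate 1 or M8 replicate 2, and 0.121 to 0.222 for Aen without parental replicate 2 or any of the M8 replicates. It was 0.104, 0.369 and 0.228 for Bcl2l1 and 0.2, 0.243 and 0.296 for Aen with TPM, quantile normalization and upper-quartile scaling.

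Trp53inp1, a nuclear stress protein that promotes p53 activity, was at 6.27, 6.21 and 5.80 FPKM in parental cells and at 4.37, 4.29 and 4.27 FPKM in M8. This gap was wide relative to the spread, with a log2 fold change of -0.42 (SE 0.0635, limma adjusted p = 0.00201). Eda2r, a receptor of the TNF receptor family for ectodysplasin, was at 15.05, 12.2 and 14.2 FPKM in parental cells and at 11.2, 11.8 and 10.6 FPKM in M8. It fell by 0.28 (SE 0.0764, limma adjusted p = 0.0234), with all M8 samples below. Bbc3, which encodes the BH3-only protein Puma, fell from 19.0 ± 0.529 to 17.3 ± 0.604 FPKM (log2 fold change -0.13, limma adjusted p = 0.0702). The TRAIL receptor gene Tnfrsf10b had values of 17.6 to 21.0 FPKM in parental cells and 16.3 to 17.8 FPKM in M8 and fell by 0.16 with overlapping groups (limma adjusted p = 0.0987). Both calls were lost without any sample except parental replicate 1, with an adjusted p of 0.101 to 0.201 for Bbc3 and 0.135 to 0.258 for Tnfrsf10b.

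The other apoptosis genes did not pass the test or were not tested. Apaf1, the scaffold of the apoptosome, was at 8.41 to 8.56 FPKM in parental cells and at 7.23 to 8.51 FPKM in M8 (log2 fold change -0.12, limma adjusted p = 0.205), and passed the test without M8 replicate 2 (adjusted p = 0.0807) or with upper-quartile scaling (adjusted p = 0.0773). Phlda3, a repressor of Akt signaling, was at 101 to 116 FPKM and 98.6 to 109 FPKM (log2 fold change -0.10, limma adjusted p = 0.238). It was called lower without parental replicate 1 (adjusted p = 0.0381) and with TPM (adjusted p = 0.0726), quantile normalization (log2 fold change -0.20, adjusted p = 0.0285) and upper-quartile scaling (adjusted p = 0.0602). Zmat3, an RNA-binding zinc finger protein, was at 15.5 ± 0.083 and 15.5 ± 0.476 FPKM, and the interval of its log2 fold change was -0.10 to 0.11. Rps27l, a paralogue of the ribosomal protein gene Rps27 and the most abundant member, had a log2 fold change of 0.02 (interval -0.10 to 0.14). The interval was -0.17 to 0.06 for Ei24, a membrane protein of the endoplasmic reticulum, and -0.09 to 0.49 for Dram1, a lysosomal membrane protein tied to autophagy. Fas, the death receptor, was at 0.681 to 1.08 FPKM in the 6 samples and fell below the filter, and Pmaip1, which encodes the BH3-only protein Noxa, and Perp, a membrane protein of desmosomes, were listed at 0 in all 6 samples. None of 20 widely used genes was listed at 0 in all samples, but a listed 0 can be a failed estimate.

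In the metabolism or repair group, 6 of 9 genes fell, beside 16.5% of all genes tested. They were Rrm2b, Ercc5, Ddb2, Xpc, Polk and Ephx1, of which all but Ephx1 act in DNA repair. This grouping was made after the values were seen, and among the further p53 targets the repair or translesion genes Polh (log2 fold change -0.05, limma adjusted p = 0.542), Pcna (-0.03, limma adjusted p = 0.58) and Rev3l (-0.10, limma adjusted p = 0.467) did not pass the test. Rrm2b, a subunit of ribonucleotide reductase that supplies nucleotides for repair, was at 10.3, 9.88 and 11.2 FPKM in parental cells and at 8.19, 7.44 and 7.70 FPKM in M8. The M8 samples were all lower, by 0.39 on the log2 scale in the mean (SE 0.0644, limma adjusted p = 0.00291). Ercc5, the endonuclease that cuts 3′ of a lesion in nucleotide excision repair, was at 16.9, 16.3 and 17.95 FPKM in parental cells and at 12.1, 14.4 and 12.1 FPKM in M8. It fell by 0.38 (SE 0.0715, limma adjusted p = 0.00483), again without overlap. The damage sensors of the same pathway fell as well. Ddb2 was at 9.32, 6.65 and 8.63 FPKM in parental cells and at 6.25, 5.80 and 5.57 FPKM in M8, a log2 fold change of -0.41 (SE 0.104, limma adjusted p = 0.0181). Xpc was at 10.1, 9.74 and 9.88 FPKM in parental cells and at 8.56, 7.38 and 8.93 FPKM in M8 (log2 fold change -0.24, limma adjusted p = 0.0333), with an adjusted p of 0.103 without M8 replicate 2. Polk, a polymerase that copies past damaged bases, fell by 0.26 (SE 0.054, limma adjusted p = 0.00695), from 10.2 to 10.9 FPKM in parental samples to 8.41 to 8.91 FPKM in M8 samples. Ddb2 shares 652 exonic bases with Acp2, and Rrm2b 734 with Gm49085, in both cases on the opposite strand.

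The metabolic members diverged. Ephx1, the microsomal epoxide hydrolase, was at 208, 238 and 237 FPKM in parental cells and at 166, 173 and 172 FPKM in M8. It thus had the largest loss in FPKM among the members, with a log2 fold change of -0.42 (SE 0.0547, limma adjusted p = 0.00104), and it shares 72 exonic bases with a pseudogene on its own strand. Sesn2, a sestrin that restrains mTORC1 when amino acids are scarce, was at 31.4, 32.9 and 28.3 FPKM in parental cells and at 39.7, 38.9 and 37.0 FPKM in M8. It rose by 0.31 (SE 0.0587, limma adjusted p = 0.00486), with all M8 samples above. Its relative Sesn1 did not pass the test (3.45 ± 0.281 and 3.17 ± 0.154 FPKM, interval of the log2 fold change -0.27 to 0.09), nor did Dcxr, a carbonyl and xylulose reductase (5.04 ± 0.352 and 4.75 ± 0.458 FPKM, interval -0.26 to 0.11). The noncoding RNA Pvt1, which is transcribed beside Myc, was at 4.59, 5.58 and 5.63 FPKM in parental cells and at 3.998, 4.08 and 4.19 FPKM in M8, with no overlap. It fell by 0.30 (SE 0.0819, limma adjusted p = 0.0249).

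**Figure D2:**
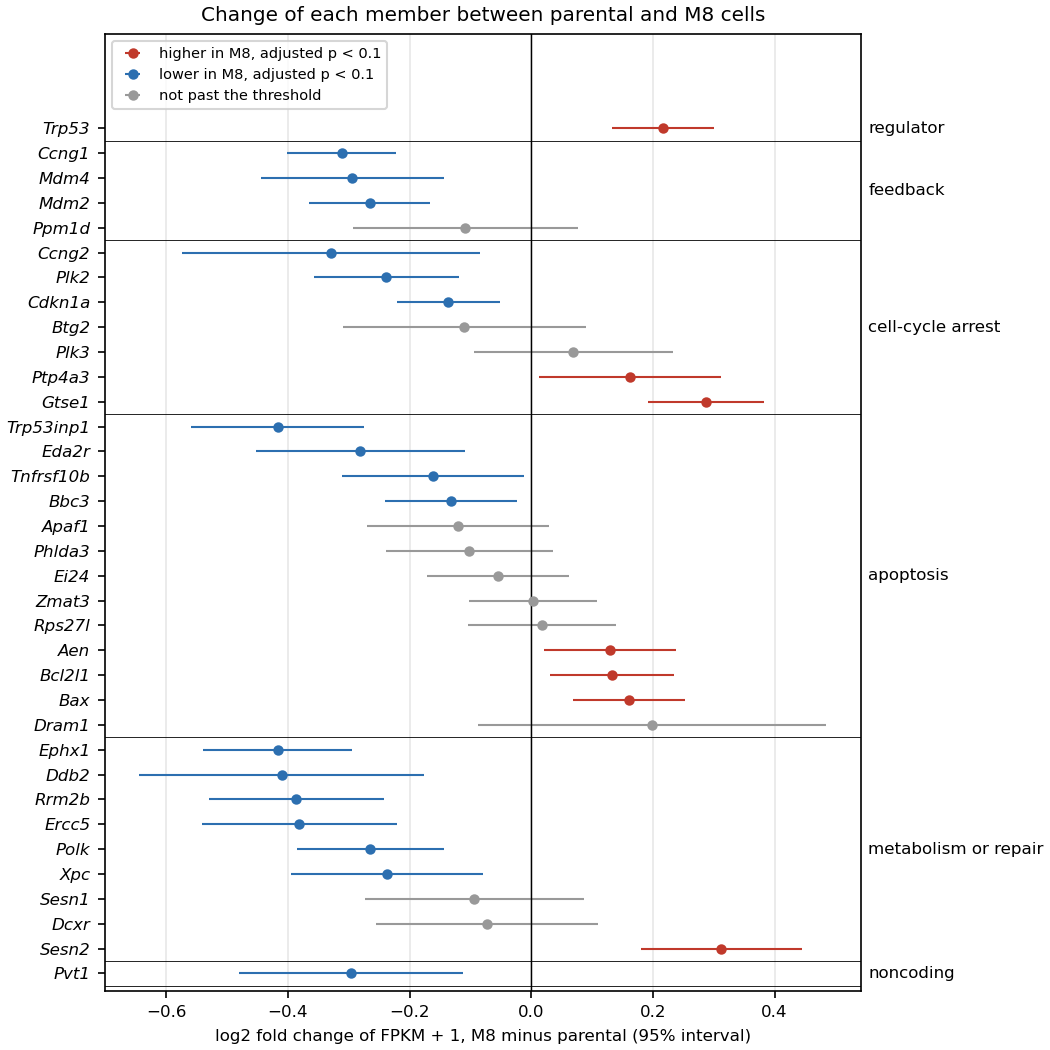
Log2 fold changes of FPKM + 1 (M8 minus parental, horizontal axis) of the 35 genes tested, grouped by role, with 95% intervals from limma and with the higher genes in red, the lower genes in blue and those not past an adjusted p of 0.1 in gray. The 17 blue points range down to -0.42 (Trp53inp1 and Ephx1) and the 7 red points up to 0.31 (Sesn2).

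The calls were stable for most of these genes. When each sample was left out in turn, 17 of the 24 called genes, 13 lower and 4 higher, stayed past the threshold in all 6 fits. The 13 lower ones were Mdm2, Mdm4, Ccng1, Cdkn1a, Plk2, Eda2r, Trp53inp1, Rrm2b, Polk, Ddb2, Ercc5, Ephx1 and Pvt1, and the 4 higher ones were Trp53, Gtse1, Bax and Sesn2. None of the 24 called genes changed direction in any alternative that was run. Direction could not change where only the filter, the trend, the threshold, the fold minimum or the block was altered, since these leave the fold change as it is.

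The members covered a wide range of levels. In parental cells 7 of them were above 100 FPKM, in the order Rps27l (305 ± 22.1 FPKM), Bax (256 ± 1.83), Ephx1 (228 ± 17), Cdkn1a (179 ± 1.76), Plk2 (119 ± 8.45), Phlda3 (111 ± 8.43) and Trp53 (101 ± 2.52), while 14 were under 10 FPKM. Of the 37 pairs of neighbours in this order, 21 did not overlap between replicates and 16 did. In M8 the corresponding means were 308 ± 9.61 FPKM for Rps27l, 287 ± 12.1 for Bax and 170 ± 3.81 for Ephx1. Replicates lay close together in both lines, with a median coefficient of variation of 5.56% in parental cells and 4.12% in M8 over the members tested.

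**Figure D3:**
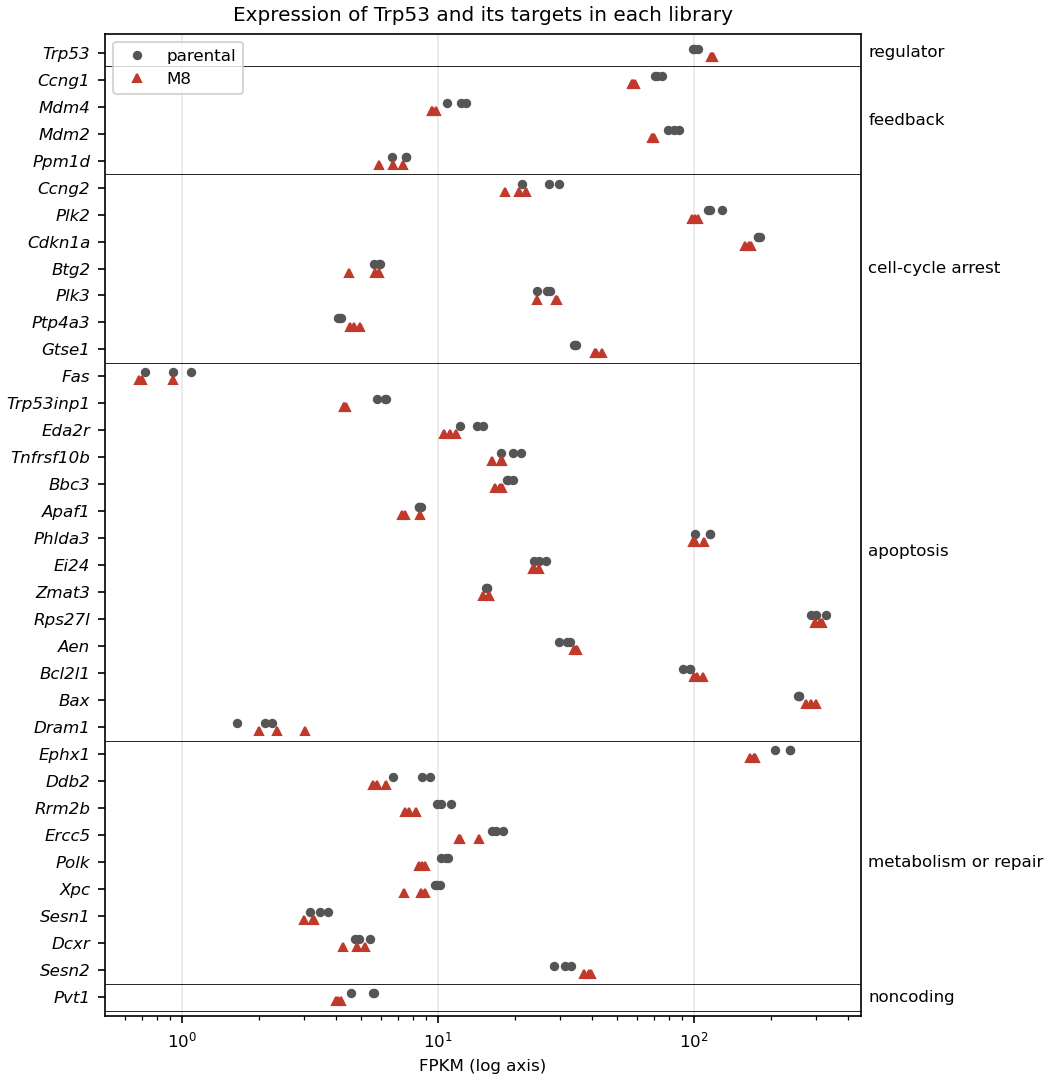
Level of 36 of the 38 genes in FPKM (horizontal logarithmic axis) in each of the 3 parental samples (circles) and 3 M8 samples (triangles), grouped by role, without Pmaip1 and Perp, which were listed at 0. Trp53 is shifted to higher values in M8, and Mdm2, Ccng1 and Ephx1 are shifted to lower values.

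The level of a target relative to Trp53, and of related members relative to each other, was compared by ratios of FPKM within each sample. The Mdm2 level was 0.802, 0.801 and 0.873 times the Trp53 level in parental samples and 0.581, 0.589 and 0.596 times in M8 samples. All M8 ratios were below the parental ones, with a log2 difference of -0.49. The ratio to Trp53 was also lower in M8 without overlap for Ccng1 (0.716 ± 0.0404 and 0.494 ± 0.00629, log2 difference -0.54) and for Cdkn1a (1.77 ± 0.0564 and 1.39 ± 0.0428, log2 difference -0.36). In M8 Trp53 was higher and Mdm2, Ccng1 and Cdkn1a were lower, each without overlap. Their lower ratios to Trp53 follow from these values and are not a separate result. Among relatives, the Plk2 to Plk3 ratio (4.57 ± 0.215 and 3.70 ± 0.481) and the Sesn1 to Sesn2 ratio (0.112 ± 0.0168 and 0.0823 ± 0.00658) were lower in M8 without overlap. For these 5 ratios the exact two-sided permutation test gave p = 0.1, the smallest p that 3 against 3 samples allow, and 0.16 after adjustment over the 8 ratios.

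The other 3 ratios overlapped between the lines. Bax relative to Bcl2l1, the pore former against its antagonist, was 2.71 ± 0.102 in parental cells and 2.77 ± 0.0125 in M8 (log2 difference 0.03, exact two-sided permutation p = 0.4, 0.533 adjusted over the 8 ratios). Mdm2 relative to Mdm4 was 6.98 ± 0.777 and 7.21 ± 0.102 (log2 difference 0.05), and Ccng1 relative to Ccng2 was 2.84 ± 0.601 and 2.86 ± 0.265 (log2 difference 0.03), each with an exact two-sided permutation p = 0.8. These small differences rested on single parental samples. Without parental replicate 1 and without parental replicate 2, respectively, the log2 difference was -0.037 and 0.12 for Mdm2 to Mdm4, 0.19 and -0.093 for Ccng1 to Ccng2, and 0.058 and 0.0061 for Bax to Bcl2l1. It was also negative for Ccng1 to Ccng2 without parental replicate 3 (-0.018) or M8 replicate 1 (-0.047).

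**Figure D4:**
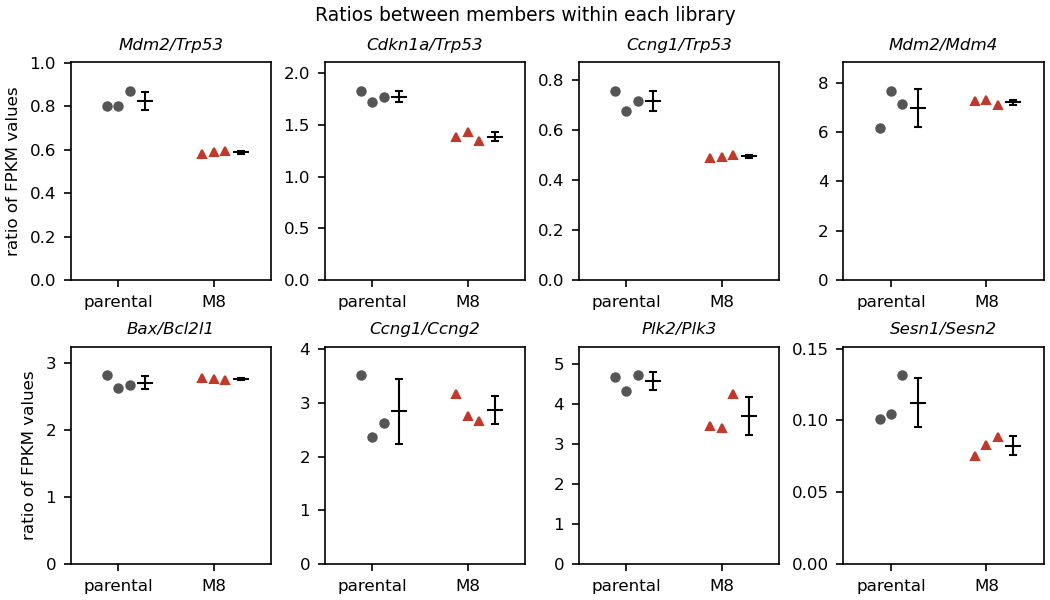
Ratios of FPKM between pairs of members in each sample (circles parental, triangles M8), with the mean and SD of each line (n = 3) beside them, on a linear axis from 0 per panel. Mdm2, Ccng1 and Cdkn1a relative to Trp53, Plk2 relative to Plk3 and Sesn1 relative to Sesn2 are lower in all 3 M8 samples than in all 3 parental samples, and the other 3 ratios overlap.

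Other genes of the p53 pathway were counted in the same fit. Of 29 members of the p53 family, p53 kinases and partners, 26 were tested, 3 rose and 1 fell, with a median log2 fold change of 0.02. The 3 largest changes among those past the threshold were a fall of Hipk2, a kinase that phosphorylates p53 (log2 fold change -0.23, limma adjusted p = 0.0864), and rises of Kat5, an acetyltransferase that modifies p53 (0.23, limma adjusted p = 0.0198), and Usp10, a deubiquitinase that stabilizes it (0.18, limma adjusted p = 0.0323). The remaining higher gene was Kmt5a, a methyltransferase that represses p53 (log2 fold change 0.17, limma adjusted p = 0.0176). The ubiquitin ligase genes Rchy1 (0.08, limma adjusted p = 0.216), Cop1 (0.03, limma adjusted p = 0.745) and Trim24 (-0.12, limma adjusted p = 0.139) and the deacetylase gene Sirt1 (0.13, limma adjusted p = 0.327), whose products also restrain p53, did not pass the test. They and Kmt5a were named after their values were seen. Cdkn2a, whose alternative product p19Arf blocks Mdm2, was listed at 0 in all 6 samples. Of 50 further p53 targets, 41 were tested, 5 rose and 9 fell, with a median of -0.03. Among them Thbs1, an inhibitor of angiogenesis, rose from 32.2 ± 3.72 to 42.4 ± 2.01 FPKM (limma adjusted p = 0.0062), Sco2, an assembly factor of mitochondrial cytochrome c oxidase, rose from 35.9 ± 1.85 to 45.4 ± 2.29 FPKM (limma adjusted p = 0.00251), and Abhd4, a lipid hydrolase, fell from 26.8 ± 0.749 to 21.6 ± 0.138 FPKM (limma adjusted p = 0.0017). The 5 higher genes are 12.2% and the 9 lower genes 22.0% of the further targets tested, beside 21.2% and 16.5% of all genes. Over both lists 8 of 67 tested genes rose and 10 fell. With TPM 6 rose and 15 fell, beside 15.6% and 20.8% of all genes, and with upper-quartile scaling 6 rose and 21 fell, beside 13.9% and 26.1%.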

How the data were processed

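RNA was sequenced from 3 parental CT26.mMR1 and 3 M8 samples as single reads from stranded mRNA libraries. The deposited FPKM values, 1 table per sample, were calculated by the authors with Cufflinks after mapping to mm10 with TopHat. The submitters' processing notes name TopHat2 2.1.1, Bowtie2 2.2.8, SAMtools 0.1.18 and Cuffdiff 2.2.1. The annotation and any filter on low values are not given in the sources used here. The FPKM values come without the fragment counts behind them, so no counting intervals are given.

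The lines were compared by lmFit and eBayes with a trend of limma 3.58.1 (R 4.3.3), applied to log2(FPKM + 1) for genes with a mean of at least 1 FPKM, Benjamini-Hochberg adjusted over all genes tested with a threshold of 0.1. Replicate numbers were not used as a block. The fit was tested on simulated data. Ratios were compared with exact two-sided permutation tests. All 38 members are given, and of the other pathway lists the 3 largest changes past the threshold. Members and lists were chosen with earlier results of these data known. Alternatives were pseudocounts of 0.1 and 0.5, no filter, a mean of at least 5 FPKM, median centring, TPM, quantile normalization, upper-quartile scaling, eBayes without trend, an adjusted p below 0.05, a 1.5-fold minimum, a replicate block, and each replicate left out. Loci are from GENCODE and promoter windows from RefSeq, both of GRCm38. Permutation tests used numpy 2.4.6, figures matplotlib 3.10.9 and tables pandas 2.3.3, all in Python 3.11.15.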

Additional observations from a re-analysis of the deposited data

How the results depend on the processing

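All called members kept their direction in every alternative in which they were tested, and 16 of the 24 kept their call in each of these except the 1.5-fold minimum. Only the pseudocounts, the rescalings and leaving out a replicate could change a direction. Pvt1, counted among the 16, and Ptp4a3 were not tested with a mean of at least 5 FPKM. Of 625 recomputed member values, 535 kept their direction and side of the threshold, 74 lost a call, 6 gained one (Apaf1 and Phlda3) and 10 changed sign. Some of the 535 were fixed in advance, since a stricter threshold or a fold minimum cannot give a member a call. The 10 that changed sign belong to members that did not pass the test. Zmat3 had a log2 fold change of -0.033 with TPM, -0.055 with upper-quartile scaling and -0.0099 to 0.027 without 1 replicate each, and Rps27l had -0.020, -0.044 and -0.027 to 0.074 in the same alternatives and -0.069 with quantile normalization. The 7 higher members became 4 with TPM, quantile normalization, upper-quartile scaling or an adjusted p below 0.05, and 4 to 6 without 1 replicate each. The median over the members moved to -0.16 with TPM and -0.18 with upper-quartile scaling, where the median of all genes moved to -0.03 and -0.05. Upper-quartile scaling gave 1470 higher and 2769 lower genes over all genes and 21 lower other pathway genes, and quantile normalization gave 5 higher other pathway genes. A 1.5-fold minimum left 42 higher and 74 lower genes, 0 members and 0 other pathway genes in either direction. Without 1 replicate each, 1157 to 1672 of all genes were lower, and 5 to 8 other pathway genes were higher and 6 to 11 lower. With a replicate block, 2171 genes were higher and 1688 lower, among them 6 and 15 members, with Bbc3, Tnfrsf10b and Ptp4a3 no longer called. The numbers do not pair the samples, since deviations of same-numbered samples correlated at 0.1, -0.11 and -0.03 and the highest correlation was not always with the own number. The causes were not tested. M8 was less deep. Fas was too low to test, and Pmaip1 and Perp, listed at 0, were not tested.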
